A study of Mus musculus with 6 samples.

Results

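Late-opening regions are stretches of chromatin that ranked among the most accessible in differentiated ATDC5 cells at day 10 and were weak or not listed at day 0 and day 3. They were chosen by rank. The peaks of each library on chromosomes 1 to 19 and X were ordered by the authors' fold over background, and overlapping peaks among the 50000 strongest of the 6 libraries were merged into 73933 regions. A region was late-opening when a peak among the 50000 strongest overlapped it in both Day10 libraries and no peak among the 100000 strongest overlapped it in any Day0 or Day3 library. This rule kept 5553 regions, which is 7.51% of all regions and 12.3% of the 45159 regions that were strong in both Day10 libraries. The Day0, Day3 and Day10 ranks chose these regions, so the ranks and folds described on those days are a description and carry no test.

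ATDC5 is a mouse cell line of chondrocyte precursors that forms cartilage-like nodules when differentiated. The assay was ATAC-seq, where an enzyme, the Tn5 transposase, cuts and tags DNA that nucleosomes do not protect. Cells of all groups were plated as dense droplets, and the differentiation medium held beta-glycerophosphate and ascorbate-2-phosphate. Day0 (labelled control), Day3 and Day10 (both labelled differentiation) each have 2 libraries, described in the labels as biological replicates from frozen, unfixed cells of this 1 line. Per the labels these are independent, but whether they came from separate cultures is not stated, so their spread may be technical.

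Regulatory DNA is usually wrapped in nucleosomes in cells that do not use it and becomes accessible when transcription factors bind it. Open regions that differ between stages of a lineage are most often distal elements such as enhancers, while many promoters stay open throughout. In cartilage, precursors first condense, then lay down a matrix of collagen and aggrecan under the control of SOX factors, and later enlarge and mineralize. Day 3 and day 10 are an early and a later point of such a course in culture. No gene annotation or sequence of the build of these lists was used here, so the regions are described by position and by what was measured at them. Positions are given as in the lists, read as GRCm39 and counted from 1.

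Before the results, the libraries differed in ways that go with the day. The lists held 164237 and 164579 (Day0), 177334 and 176710 (Day3), and 380813 and 389571 (Day10) peaks on these chromosomes. The spacing of the deposited folds gave back a whole number of overlapping reads, the pileup, for 100% of the peaks of each library. The fold at rank 50000 stood for 28 and 29 reads (Day0), 25 and 26 (Day3), and 36 and 37 (Day10). The fold at rank 100000 stood for 12 reads in each Day0 library, 11 and 12 on Day3, and 20 and 21 on Day10. The weakest listed peak had 5 reads in every library. The narrowest Day10 peaks had 68 and 72 bases against 87 to 90 elsewhere, the word lysis appears in peak names of the Day3 libraries and no others, and the mark S2 in those of the Day10 libraries and no others. Day and any separate handling of those libraries therefore cannot be told apart.

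The strongest late-opening regions reached folds above 40 at Day10. Of the 10 strongest, 1 would be chosen if limits on -log10 q, 10 or more at Day10 and under 5 earlier, replaced the ranks, since the others had early peaks past that limit. The first lay on chromosome 5 from 150174314 to 150176106. It was not listed in either Day0 library, had a fold of 5.00 and 6.12 in the Day3 libraries, and a fold of 44.6 in both Day10 libraries. Those Day10 folds stood for 92 and 95 overlapping reads, with exact Poisson 95% intervals of 74.2 to 112.8 and 76.9 to 116.1. At Day3 the pileup was 8 and 10 reads, with intervals of 3.45 to 15.8 and 4.80 to 18.4. These intervals cover counting error only. Pileups are not scaled for depth, and the rule itself set the Day10 and Day3 values apart.

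The next of these regions had the same order of days. On chromosome 14, the region from 25206815 to 25208506 had no Day0 peak, Day3 folds of 6.67 and 6.12, and Day10 folds of 43.2 and 44.6. The next, on chromosome 17 from 48135483 to 48136558, had no Day0 peak, Day3 folds of 6.12 and 6.67, and Day10 folds of 45.6 and 44.2. Both were thus faint at Day3 in each replicate and absent from the Day0 lists. A second region on chromosome 17, from 31999835 to 32002277, also had no Day0 peak, with Day3 folds of 6.12 and 5.00 and Day10 folds of 43.2 and 45.1. The fifth, on chromosome 5 from 124590043 to 124592408, had Day3 folds of 6.12 and 4.45 and Day10 folds of 42.7 and 45.1. It too had no Day0 peak.

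Of the 10 strongest late-opening regions, 9 were listed in Day3 replicate 1 and 8 in Day3 replicate 2, while 1 was listed at Day0. The one listed at Day0 lay on chromosome 19 from 28822422 to 28823414. Its Day0 folds were 5.83 and 6.36, its Day3 fold was 6.12 in each library, and its Day10 folds were 40.8 and 43.7, so Day0 and Day3 overlapped. The only one of the 10 with no peak in any Day0 or Day3 library lay on chromosome 14 from 25866486 to 25867972, with folds of 42.2 and 44.2 at Day10. Over all 10, listed Day3 folds ran from 4.45 to 6.67 and Day10 folds from 40.3 to 45.6.

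**Figure D1:**
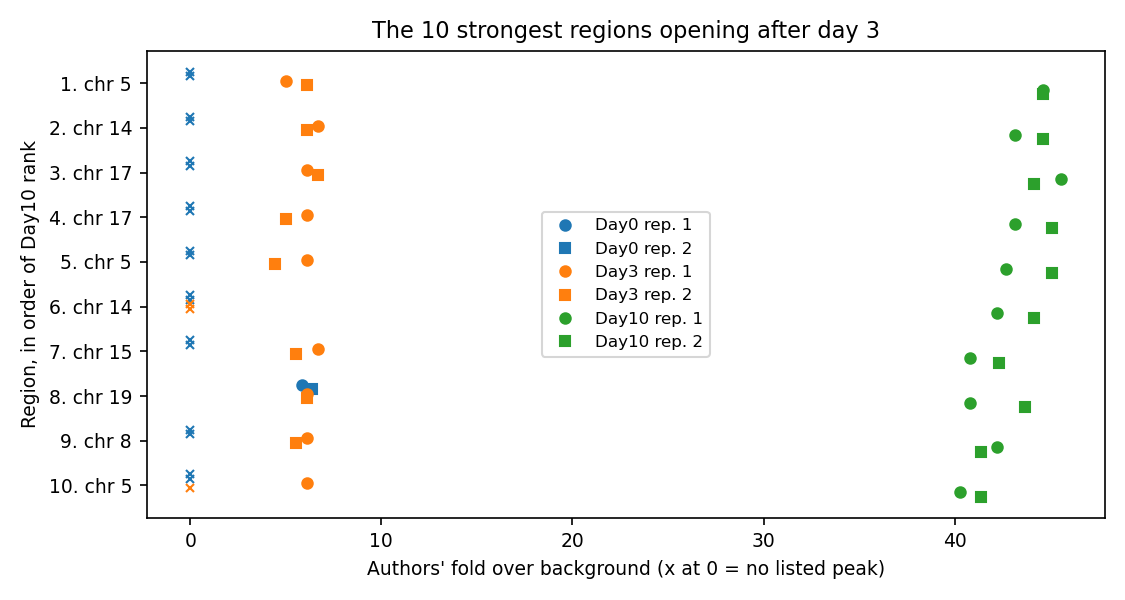
Authors' fold over background (x axis) of the 10 late-opening regions with the best Day10 ranks (y axis, by chromosome), 1 point per library, with crosses at 0 where a library lists no peak. All Day10 points lie at 40.3 or above, the Day3 points lie at 6.67 or below, and Day0 points other than crosses are seen for the chromosome 19 region alone.

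Most late-opening regions were moderate at Day10 rather than among its strongest. Their Day10 fold ranged from 17.8 to 45.6 with a median of 22.1 in replicate 1, and from 17.7 to 45.1 with a median of 22.8 in replicate 2. The 28367 regions strong in all 6 libraries had median Day10 folds of 29.7 and 30.2, with a highest fold of 65.7 and 67.4. The other regions strong at Day10 had medians of 22.5 and 23.2, close to those of the late-opening ones. Of the 4120 regions whose poorer Day10 rank was 5000 or better, 31 were late-opening, or 0.752%. The share was 6.12% for ranks 10000 to 20000 and 23.0% for ranks 40000 to 50000. In all, 1206 late-opening regions were among the 25000 strongest of both Day10 libraries, and 137 among the 10000 strongest.

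The Day10 replicates gave close values for the late-opening regions. The higher of the 2 folds was at the median 1.06 times the lower, and at most 1.43 times. The best peaks' summits lay a median of 10 bases apart, and within 50 bases in 85.1% of the regions. The regions strong in all 6 libraries had a median ratio of 1.05 and a median summit distance of 9 bases. Both groups were chosen by their Day10 ranks in both libraries, so these ratios are a description.

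**Figure D2:**
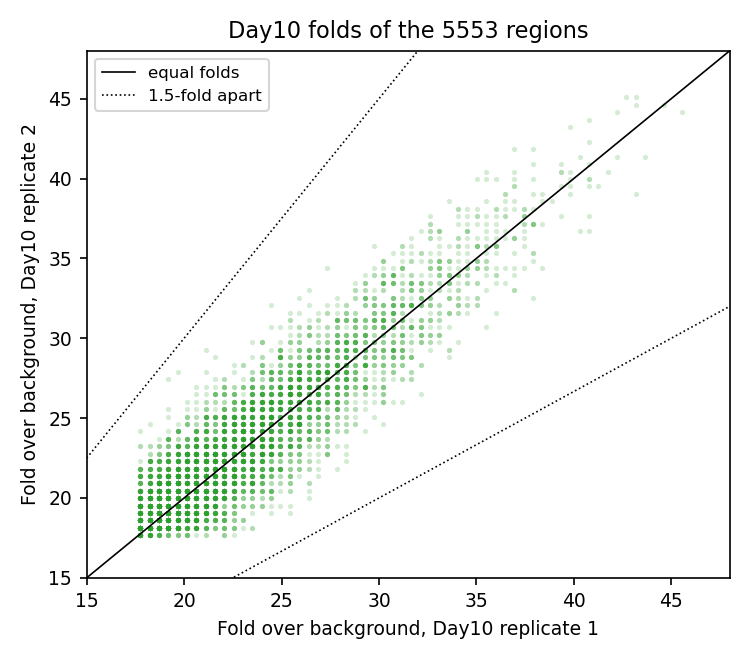
Fold over background in Day10 replicate 1 (x axis) and replicate 2 (y axis), 1 point per late-opening region, with lines for equal folds and for folds 1.5 times apart. All 5553 points lie between the dotted lines, and the empty band below about 17.7 is set by the rank limit.

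The rule was also applied with 1 replicate number alone, and the regions it chose were read in the other replicate. With replicate 1 of each day alone, 6759 regions met the rule, and in the replicate 2 libraries 87.0% of these ranked within the 50000 strongest at Day10 and 100% within the 100000 strongest. In the same replicate 2 libraries 98.7% stayed out of the 100000 strongest at Day0 and 95.4% at Day3. With replicate 2 alone, 6895 regions met the rule, and replicate 1 held 85.9% of them at Day10, left 98.3% out at Day0 and left 95.3% out at Day3. None of the regions chosen either way was covered by one of the 50000 strongest Day0 or Day3 peaks of the other replicate, a share of 0%. All conditions of the rule were met in the other replicate by 82.2% of the first set and 80.5% of the second. The regions themselves were merged from all 6 libraries, so the other replicate was not fully apart from the choice. No shares over all regions are given beside these, so they are a description.

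The rule did not ask whether a weaker peak was listed earlier, nor on which early day. Late-opening regions were listed more often at Day3 than at Day0. They had a listed peak in 13.7% and 14.0% of cases in the Day0 libraries and in 35.1% and 34.4% in the Day3 libraries. Both Day3 values lay above both Day0 values, and the replicates of a day differed by less than 1 percentage point. The Day3 mean was 2.51 times the Day0 mean. Over all regions, 89.3% were listed in each Day0 library and 93.1% in each Day3 library. No test of 2 against 2 libraries is given, since an exact permutation p cannot fall below 0.33.

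Taken region by region, 1071 late-opening regions were listed in both Day3 libraries and in neither Day0 library, which is 19.3% of them. The background over all 73933 regions was 3.7%. The mirrored pattern, both Day0 libraries and neither Day3 library, was found in 141 late-opening regions, or 2.54%, against a background of 0.469%. Both patterns need a weak or missing early peak, which the rule favours, so neither share is read against its background. The ratio of the first pattern to the second was 7.60 among late-opening regions and 7.88 over all regions, so this balance is not particular to the late-opening ones. By fold, both Day3 libraries stood above both Day0 libraries in 1254 late-opening regions, or 22.6%, against 27.0% over all regions. The reverse held in 340, or 6.12%, against 48.5% over all regions. By rank, the counts were 1308, or 23.6%, against 42.0% over all regions, and 287, or 5.17%, against 32.0%. The 3071 regions listed on neither early day can enter none of these counts, which lowers each share against its background. An unlisted region was placed below every listed one, so the 1071 and 141 regions above are among these fold and rank counts. With them included, higher at Day3 outnumbered higher at Day0 among the late-opening regions by fold and by rank. This largely repeats the listing pattern. By fold, those regions were 1071 of the 1254 and 141 of the 340, and among the rest Day3 no longer outnumbered Day0. By rank, they were 1071 of the 1308 and 141 of the 287, and among the rest Day3 still did. Over all regions the balance turned between fold and rank. The rank limit let through folds of up to 7.57 and 7.51 at Day0, against 6.67 and 7.23 at Day3, so higher folds were allowed at Day0.

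The Day3 lists were longer than the Day0 lists. With every list shortened to the length of the shortest, the mean share was 13.8% at Day0 and 30.7% at Day3, a ratio of 2.22. A minimum -log10 q of 5 for an early peak gave 9.99% at Day0 and 16.7% at Day3, a ratio of 1.67. The Day3 excess was thus smaller among the stronger early peaks, and Day3 stayed above Day0 in both settings. The rule itself capped early folds at 7.57 and 7.51 at Day0 and at 6.67 and 7.23 at Day3. Stronger peaks were thus cut off lower at Day3, so the smaller excess is only a description.

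The share listed at Day3 went with the strength reached at Day10, and that at Day0 hardly did. Among late-opening regions whose poorer Day10 rank was 5000 or better, 71.0% and 67.7% had a Day3 peak and 19.4% and 22.6% a Day0 peak. For ranks 10000 to 20000 the Day3 shares were 43.2% and 42.1% and the Day0 shares 15.2% and 14.5%. For ranks 40000 to 50000 they were 31.7% and 31.2% for Day3 and 13.5% and 13.6% for Day0. The first class holds 31 regions and the last 2049, so the shares of the first are the least precise. Median Day10 peak widths also fell, from 1181 and 1185 bases in the first class to 467 and 478 in the last. A wider region can overlap more listed peaks, and the shares were not compared at equal width.

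Day10 peaks below the rank limit were then compared. All Day10 replicate 1 peaks that overlapped none of the 100000 strongest peaks of any Day0 or Day3 library were taken for this comparison, which was added after the shares above were seen. Among the 25000 strongest, 1460 were of this kind, with 42.5% and 41.8% listed at Day3 and 15.1% and 14.6% at Day0. Between ranks 100000 and 200000, 68727 were of this kind, with 18.6% and 18.3% listed at Day3 and 11.3% and 11.4% at Day0. Between ranks 200000 and 300000 the Day3 shares were 9.55% and 9.28% and the Day0 shares 5.82% and 5.91%. Day3 thus exceeded Day0 among weak Day10 peaks as well, by a smaller factor, and in these last classes the Day0 share fell with Day10 strength too. Peaks of Day10 replicate 2 gave shares within 1 percentage point of these in each class.

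**Figure D3:**
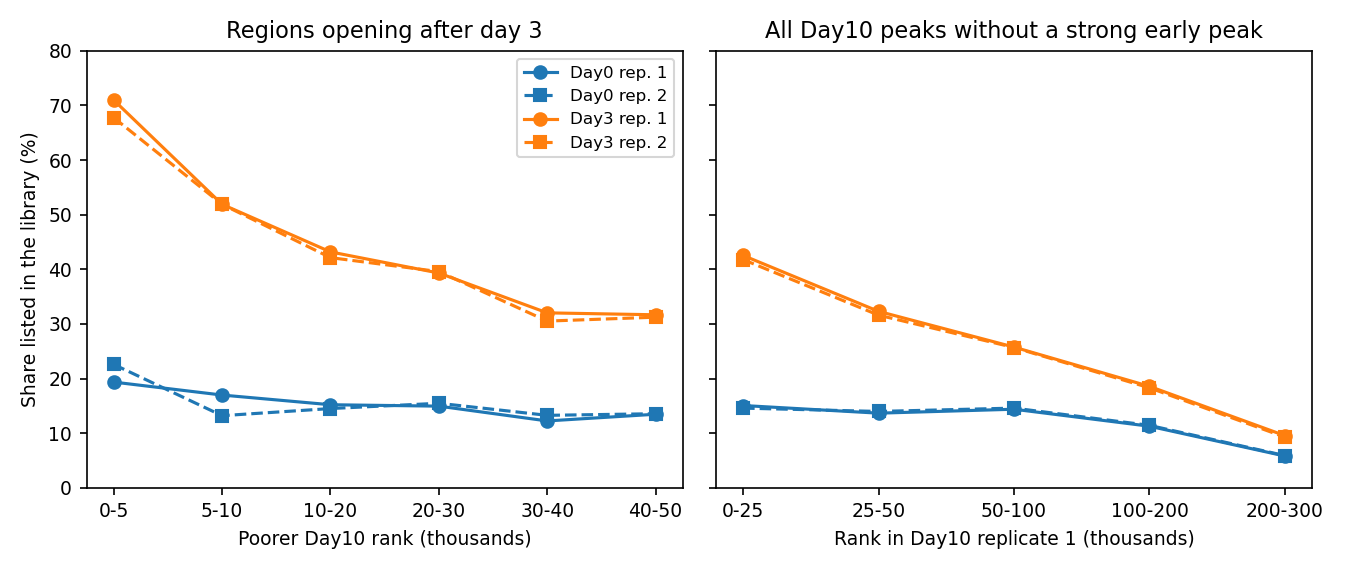
Share of regions with any listed peak in each Day0 and Day3 library (y axis, percent), by class of Day10 rank (x axis), for late-opening regions (left) and for all Day10 replicate 1 peaks without one of the 100000 strongest early peaks (right). The Day3 lines fall from 71.0% and 67.7% to 31.7% and 31.2% on the left, while the Day0 lines stay between 12.2% and 22.6%.

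Many late-opening regions had no earlier listed peak. No Day0 or Day3 library listed a peak at 3071 of them, or 55.3%, and 2482 had a listed peak in at least 1 of these libraries. The strongest of the unlisted ones after the chromosome 14 region lay on chromosome 11 from 113111966 to 113113015, with Day10 folds of 43.7 and 41.4. Another lay on the same chromosome from 113783214 to 113784679, with folds of 39.8 and 43.2. On chromosome 5, the region from 118449765 to 118451156 had folds of 40.8 and 39.97, and on chromosome 16 that from 44799595 to 44800588 had folds of 39.3 and 40.4. A region without a listed peak may still have held up to a few reads, since no list goes below 5 reads at the summit. The recovered background was also lower in the early libraries, 0.717 to 0.799 reads against 1.08 and 1.15 in the Day10 libraries. Early signal below the listed peaks is not known from these lists.

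At the other end, 383 late-opening regions were listed in all 6 libraries. Their Day0 folds ran from 3.50 to 7.57 with medians of 5.83 and 5.78, and their Day3 folds from 3.34 to 6.67 with a median of 5.56 in both. At Day10 they ran from 17.7 to 43.7 with medians of 22.5 and 22.8. Day0 and Day3 overlapped over almost their whole range, and Day10 overlapped neither, as the rule requires.

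Regions at the edges of this listing were named by a fixed rule. The region on chromosome 3 from 67398970 to 67400272 was unlisted at Day0, had a Day3 fold of 6.67 in each library, and Day10 folds of 26.4 and 26.5. A region on chromosome 4 from 9372174 to 9372682 showed the mirrored order, with Day0 folds of 7.57 and 7.51, no Day3 peak, and Day10 folds of 24.5 and 22.8. The second of the mirrored kind, on chromosome 10 from 84383988 to 84384471, had the same Day0 folds, no Day3 peak, and Day10 folds of 25.9 and 27.4. These early peaks stood for 11 reads at the first region and 12 at the others.

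Some regions fell on one side of a limit by a tie. Between 1666 and 2060 peaks per library shared the fold at rank 50000, and between 4925 and 8220 that at rank 100000, with ties ordered by chromosome. The last region inside the Day10 limit, on chromosome 6 from 8638656 to 8639336, had folds of 17.8 and 17.7. The first outside it, on the same chromosome from 34519817 to 34520206, had the same pair of folds. The region nearest to the early limit on the inside, on chromosome 1 from 185486623 to 185487044, had a Day3 replicate 1 rank of 100023, and the nearest outside, on chromosome X from 157993850 to 157994239, had a Day3 replicate 2 rank of 100000. With all tied peaks counted as within the limit, 5456 regions were late-opening, and 8 of the 10 strongest stayed among them.

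Late-opening regions had narrower Day10 peaks than regions open throughout, and much of this gap went with rank. Their best Day10 peaks had median widths of 546 and 565 bases in the 2 libraries, against 784 and 813 in regions strong in all 6. The other regions strong at Day10 had nearly the same medians, 550 and 575 bases. For ranks 10000 to 20000 the medians were 736.5 and 788.5 bases against 865 and 904, and for ranks 40000 to 50000 they were 467 and 478 against 440 and 458.5, so the order turned among weaker regions. The difference was 243 bases without classes, 82.0 as a plain mean over 6 rank classes, and 9.02 with the classes weighted by their number of late-opening regions, a setting added later.

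Broad regions were few, with 54 late-opening regions of 2000 bases or more, or 0.972%. This share was 7.58% over all regions strong at Day10 and 11.1% over those strong in all 6, which are merged from peaks of more libraries. The 7.58% includes the regions strong in all 6, and no share is given for the others alone or within rank classes. The widest lay on chromosome 8 from 106976158 to 106983198 and spanned 7041 bases. It was unlisted in Day0 replicate 1, had a fold of 4.62 in Day0 replicate 2, Day3 folds of 6.12 and 5.00, and Day10 folds of 26.9 and 28.8. The second widest, 4372 bases from 106985373 to 106989744, lay 2174 bases from it. Its Day10 folds were 20.1 and 20.5, and its early folds 5.83 in Day0 replicate 1 and 4.45 in Day3 replicate 2, and it was unlisted in the other early libraries. These 2 regions were thus neighbours. The next widest, 3646 bases on chromosome 19 from 56209164 to 56212809, was listed in no early library and had folds of 28.3 and 31.1 at Day10.

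The nearest neighbour of a late-opening region was itself late-opening more often than that of other regions. For each region strong at Day10, the nearest other region strong at Day10 was found, and it was asked whether that neighbour was late-opening. It was for 23.2% of late-opening regions, for 14.6% of the 11239 other regions strong at Day10 but not in all 6 libraries, and for 9.76% of regions strong in all 6. When the neighbour was under 2 kb away the shares were 32.5%, 14.5% and 8.73%. From 2 to 10 kb they were 20.9%, 15.3% and 10.0%, and from 10 to 50 kb 18.05%, 14.2% and 10.2%. At 50 kb or more they were 13.6%, 13.5% and 10.1%. The share among late-opening regions thus fell with distance to that of the other group, which did not change with distance by more than 2 percentage points. Peaks were merged only where they shared a base, so parts of 1 open stretch can count as neighbours. For the late-opening regions from 150260876 on chromosome 5 and from 113783214 on chromosome 11, another lay 36 and 108 bases away. The share without such close pairs is not given, and the groups were not matched on Day10 rank.

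**Figure D4:**
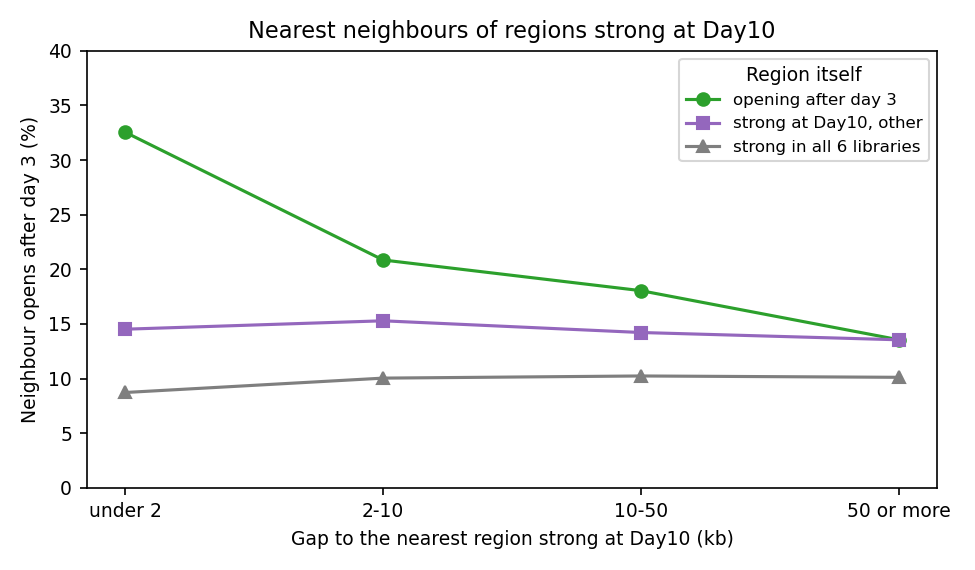
Share of regions whose nearest neighbour strong at Day10 is late-opening (y axis, percent), by the gap to that neighbour in kb (x axis), for late-opening regions, other regions strong at Day10, and regions strong in all 6 libraries. The late-opening line falls from 32.5% to 13.6%, and the others stay between 8.73% and 15.3%.

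Runs of late-opening regions, with no other region strong at Day10 between them and at most 50 kb from one to the next, were then counted. Of the 5553 regions, 1762 stood in 760 runs of 2 or more, or 31.7%, and 177 runs held 3 or more. The same count is not given for other groups of regions, so whether 31.7% is high cannot be told. Parts of 1 open stretch can count as separate regions in these runs as well. The longest held 6 regions, and there were 4 of these. The shortest in span ran over 10116 bases of chromosome 4 from 63117594 to 63127709. Its 6 regions had Day10 folds of 18.2 to 34.5 and 18.6 to 37.2, and 1 of them was listed in 1 early library. The longest in span ran over 65106 bases of chromosome 5 from 150174314 to 150239419 and begins with the strongest late-opening region of all. None of its 6 regions was listed at Day0, and 1 was listed at Day3. These runs were chosen after their values were seen.

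Late-opening regions also lay somewhat farther from regions that were open throughout. The median gap to the nearest region strong in all 6 libraries was 13458 bases for late-opening regions, 10831 for other regions strong at Day10, and 10339 between regions strong in all 6. A region open throughout lay within 5000 bases of 27.3%, 33.0% and 33.2% of them. Within 50000 bases these shares were 83.2%, 84.7% and 86.4%, and 6.56%, 6.22% and 5.43% of them lay more than 100000 bases from any such region.

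Every chromosome held late-opening regions. On the autosomes they made up 10.2% to 13.7% of the regions strong at Day10, and 12.4% together. On chromosome X they were 67 of 874, or 7.67%, below each autosome. With tied peaks counted as within the limits, which takes chromosome order out of the rule, the share on chromosome X was 7.85%, and the lowest autosome, chromosome 3, had 9.60%.

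At the scale of megabases the regions were uneven. Windows of 1 megabase held a median of 1 late-opening region, and 80 windows held 10 or more. These 80 windows held 18.5% of late-opening regions and 10.8% of all regions strong at Day10. The windows were picked by their count of late-opening regions, which by itself favours the first share, so the 2 shares are only a description. The densest window, on chromosome 11 from 113000001 to 114000000, held 36 of its 90 regions strong at Day10. Its late-opening regions had Day10 folds of 17.8 to 43.7 in replicate 1 and 18.1 to 43.2 in replicate 2. No early library listed a peak at 20 of the 36, while 14 were listed in at least 1 Day3 library and 5 in at least 1 Day0 library.

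The next windows held 20 late-opening regions each, on chromosome 5 from 134000001 to 135000000 and on chromosome 14 from 25000001 to 26000000. They were 27.4% of 73 and 18.7% of 107 regions strong at Day10. The strongest of the former, from 134791918 to 134792763, was faint on both early days, with Day0 folds of 5.83 and 5.20, Day3 folds of 4.45 and 5.00, and Day10 folds of 41.7 and 40.4. The latter holds the second strongest late-opening region and the strongest one with no early peak. Windows with 19 lay on chromosome 5 from 113000001 to 114000000 and on chromosome 6 from 145000001 to 146000000. Their strongest regions had folds of 34.5 and 32.1, and of 36.9 and 39.5, and neither was listed early.

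By share rather than number, other windows led. Among the 923 windows with 20 or more regions strong at Day10, the late-opening share ran from 0% to 47.1%, with a median of 11.5%. The highest was on chromosome 7 from 142000001 to 143000000, with 16 of 34. The window on chromosome 13 from 37000001 to 38000000 had 13 of 28, or 46.4%. By contrast, 47 of the 923 windows held none. The one with the most regions strong at Day10, on chromosome 15 from 77000001 to 78000000, had 0 of 72, of which 51 were strong in all 6 libraries. These windows by share were chosen after their values were seen.

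**Figure D5:**
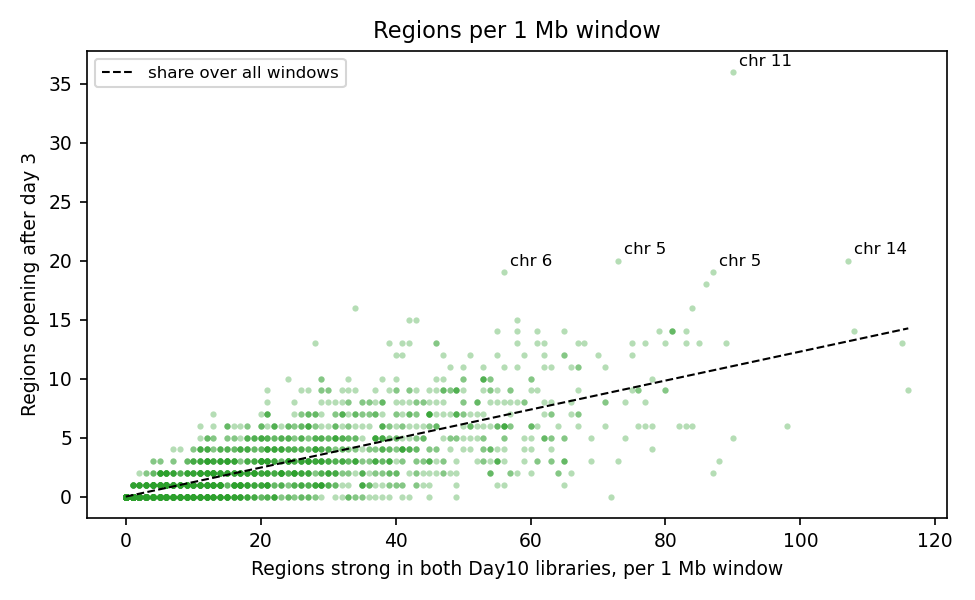
Number of late-opening regions (y axis) against the number of regions strong in both Day10 libraries (x axis), 1 point per 1 megabase window, with a dashed line at the share over all windows, 12.3%. The chromosome 11 window, with 36 of 90, stands above all others, and the 5 densest windows are labelled by chromosome.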

How the data were processed

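Each of the 6 libraries has 1 deposited peak list, called on that library alone. Per the submitters' processing notes, Trim Galore was used and the build was mm10. The scaffold names in the lists belong to GRCm39, and the gene and promoter tables at hand are for GRCm38, so gene, start site, motif and sequence results were not run. For the aligner, the peak caller and settings, the entry is: not given in the sources used here. The deposited score, fold ratio, -log10 p and -log10 q of each peak are the authors' own values. The score follows the -log10 q.

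Groups and replicate numbers come from the sample titles. Peaks overlapped when they shared at least 1 base. Each region took, per library, the values of the best-ranked peak overlapping it. Pileups were recovered from the fold spacing as (pileup + 1) / (background + 1), whole within 0.01. No count model or p-value was used. Python 3.11.15, numpy 2.4.6, pandas 2.3.3, scipy 1.17.1 and matplotlib 3.10.9 were used. The code of the rule was run on simulated lists without ties, where planted regions stood far from the limits. That run checks the code alone and says nothing of regions near a limit. Named regions are the 10 strongest (by the poorer Day10 rank), the 5 strongest unlisted early, the 5 widest, the strongest of the 5 densest windows, those nearest the limits, and those listed on 1 early day alone, of which the first are given. Members, lists and tests were chosen with earlier results of these data known. Alternatives were other limits, overlaps, ties, distances and leaving out each library.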

Additional observations from a re-analysis of the deposited data

How the results depend on the processing

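The number of late-opening regions, 5553, was 5279 to 6895 with ordering by -log10 p, summits in the region, 100 shared bases, chromosome Y, limits on -log10 q, ties within the limit or 1 replicate number alone. It was 1206 with the 25000 strongest at Day10, 3071 with no listed early peak and 10894 with no gap between the rank limits. Without 1 library it was 5609 to 6555, where fewer conditions apply and it can only rise. The mean share listed at Day0 was then 13.9% to 15.3% and at Day3 34.0% to 38.0%. With lists of equal length the Day3 share was 30.7%. With a -log10 q of 5 or more the shares were 9.99% and 16.7%, and among the 25000 strongest at Day10, added later, 15.6% and 42.3%. Day3 exceeded Day0 in each of these settings. Another late-opening region lay within 50 kb of 54.2%, within 10 kb of 25.2% and within 100 kb of 69.0%. These shares are not given for other groups of regions, so they are only a description. Without 1 library the 50 kb share was 54.4% to 58.5%, the share with a late-opening nearest neighbour 23.2% to 25.04%, the median Day10 width 526 to 557.5 bases, and the densest window held 36 to 44. In 500 kb windows the most was 18. The width difference to regions strong in all 6 was 243 bases, 82.0 as a mean over rank classes, and 9.02 with classes weighted by late-opening regions, added later. Of the 10 strongest, 1 stayed when no early peak was allowed or when limits on -log10 q were used. No paired analysis was possible because the results come from no test. Read depth limits what can be said of unlisted regions. Analyses that need a genome or annotation of the build were not run.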
